A study of Arabidopsis thaliana with 4 samples.

Results

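The comparison described here sets shoot apices of nse4a-2, a mutant allele of NSE4A, against those of wild type when both had been kept in the drug zebularine. It uses 4 of the 8 libraries of the study, 2 labelled nse4a-2_zeb and 2 labelled WT_zeb, which were chosen by their group label and not by any measured value. All plants were Arabidopsis thaliana of the ecotype Col-0 and were grown without drug for 9 days in long days. They were then moved into liquid medium with 20 µM zebularine for 24 h, and the apices were freed of leaves, hypocotyl and root at an age of 10 days. The other 4 libraries, WT_ctrl and nse4a-2_ctrl, had the same handling without the drug, and are used for the common estimate of the spread and beside the results. The deposited table gives read counts for 32356 of its 32399 genes, and 19682 genes with enough reads were tested.

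NSE4A encodes the kleisin subunit of SMC5/6, a ring-shaped complex related to cohesin and condensin that holds DNA and takes part in the repair of breaks by homologous recombination and in the progress of stalled replication forks. Zebularine is a cytidine analogue that is built into DNA and traps DNA methyltransferases on it, which leaves bulky protein-DNA crosslinks as well as lowered methylation. In plants, the transcription factor SOG1 takes the place of animal p53: after damage it is phosphorylated by the kinases ATM and ATR and switches on repair genes and inhibitors of cell division. The labels name the allele but not its lesion, and give a single mutant line, so no other allele stands beside it.

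Library totals were 16172625 to 19811948 reads in the 4 zebularine libraries, where 3 reads correspond to 0.151 to 0.185 CPM (reads scaled to a common library total, the usual counts-per-million unit, which is used for levels below). The first principal component of all 8 libraries held 57.1% of the variance and placed the nse4a-2_zeb libraries at 70.6 and 86.5, with the 6 others between −63.4 and 5.30. The file headers call R1 and R2 biological replicates. Differences are given as log2 fold changes of nse4a-2_zeb over WT_zeb ± SE, and a gene was called where its adjusted p from edgeR's quasi-likelihood test, over all genes tested, was below 0.05. Since the samples are bulk tissue, fewer cells of a type and less RNA per cell cannot be told apart in any value below.

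In zebularine, nse4a-2 apices had more RNA than wild-type apices of most of the listed genes that DNA damage induces. The same held for many salicylic acid and pathogen defence genes, cold-regulated genes and mitochondrial stress genes. Most replication-dependent histone genes had less RNA in nse4a-2 apices. In all, 2541 genes were called higher and 1789 lower, which is 22.0% of the genes tested (12.9% higher and 9.09% lower). Rises were larger than falls: 565 of the higher genes and 83 of the lower ones differed at least 4-fold, and the median was 1.05 among the higher and −0.66 among the lower genes, against −0.022 over all genes tested. The counts lean on single libraries, which were left out here and below 1 at a time. Leaving out nse4a-2_zeb R2 left 1251 higher and 524 lower calls, and leaving out WT_zeb R1 left 1646 and 890. When each of the 4 zebularine libraries was left out in turn, 1159 of the higher and 381 of the lower genes were called every time.

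**Figure D1:**
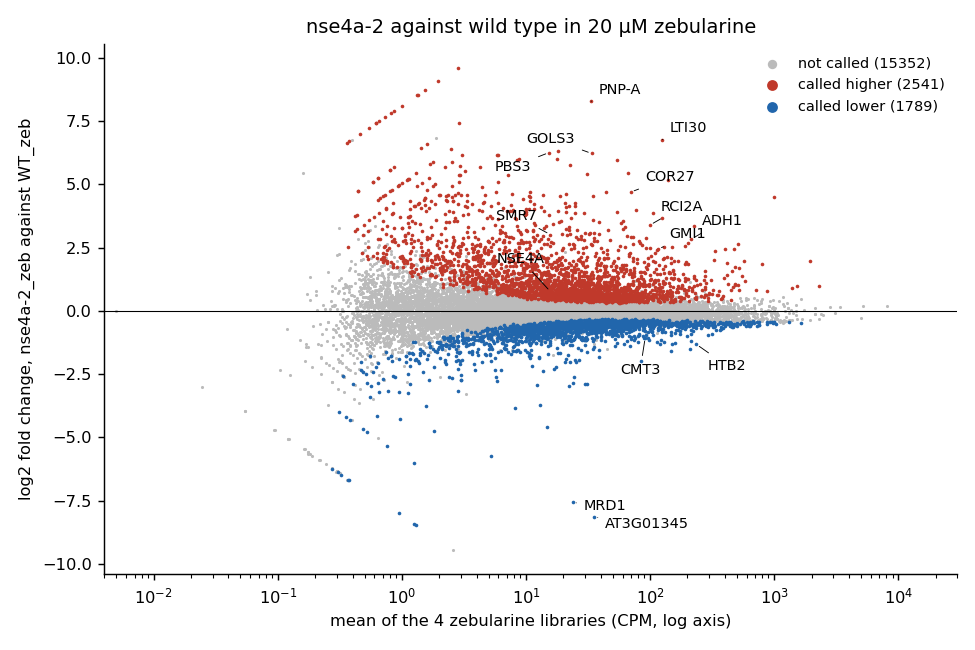
Each point is 1 of the 19682 genes tested, with its mean over the 4 zebularine libraries in CPM on the log x axis and the log2 fold change of nse4a-2_zeb over WT_zeb on the y axis. Red points are the 2541 genes called higher and blue points the 1789 called lower, of which 565 red and 83 blue points are at least 4-fold from equality.

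NSE4A (AT1G51130) itself was read in all libraries, at 10.5 and 12.9 CPM in WT_zeb and 18.5 and 21.1 CPM in nse4a-2_zeb. Both mutant values lay above both wild-type values, a difference of 0.76 ± 0.16 (adjusted p 0.00999), and the call was lost without WT_zeb R1 or without nse4a-2_zeb R2. As the lesion of nse4a-2 is not given, this count does not check the genotype. In control medium the gene stood at 10.7 and 9.23 CPM in WT_ctrl and 8.4 and 7.79 in nse4a-2_ctrl, a difference of −0.30 ± 0.17 (adjusted p 0.407). NSE4B, the paralogous kleisin gene, had 0 reads in all 8 libraries. Of all genes tested, 12.9% were called higher and 9.09% lower. Among 9 tested genes of the complex NSE4A was the 1 that passed, and the list's median was 0.036. The others ran from −0.18 for HPY2, the SUMO ligase subunit, to 0.58 for SNI1, a subunit first found as a repressor of defence genes, while the ATPases SMC5 and SMC6B were at 0.055 and 0.03.

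A neighbour of NSE4A separated the genotypes in both media. AT1G51120, annotated as an AP2/B3 transcription factor gene, had 1 and 0 reads in WT_zeb and 54 and 51 reads in nse4a-2_zeb, and none in WT_ctrl against 36 and 41 in nse4a-2_ctrl. From the summed reads of the zebularine libraries the ratio was 123, with an exact 95% counting interval of 21.6 to 4893 (adjusted p 0.000423). In the TAIR10.1 annotation AT1G51120 lies on the plus strand of chromosome 1 at 18938091 to 18939149 and NSE4A on the minus strand at 18939194 to 18941719, so that both end towards each other with 44 bases between them. The strand kept by the libraries is not stated, and the gene was looked at after its values were seen.

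Of 15 genes of the related complexes cohesin and condensin, 1 was called higher and 3 lower, where 12.9% and 9.09% of all genes tested were. SYN2, a kleisin of cohesin, was higher at 27 and 25.3 CPM in nse4a-2_zeb against 13.3 and 13.8 in WT_zeb, a difference of 0.95 ± 0.13 (adjusted p 0.00122). SYN3, another cohesin kleisin, was lower at −1.18 ± 0.16 (adjusted p 0.000886), from 17.1 and 14.6 CPM to 7.49 and 6.46. The condensin subunit genes CAP-D2 and EMB2795 were called lower at −0.61 and −0.51, calls lost without WT_zeb R2 or nse4a-2_zeb R2. The EMB2795 call was also lost without nse4a-2_zeb R1, with DESeq2, with RLE size factors and with the replicate block, and the list's median was −0.13.

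The genes that plants switch on after DNA damage formed the clearest group on the repair side. Of 20 such genes, 16 were called higher and 0 lower (2541 of 19682 genes, 12.9%, were called higher overall), with a list median of 1.03. GMI1, a protein with an SMC hinge domain that acts in somatic recombination, was at 36.7 and 36 CPM in WT_zeb and 190.1 and 203 CPM in nse4a-2_zeb. That gap between groups was 2.44 ± 0.17 (adjusted p 3.5e-05) and far wider than the gap within either group. NAC085 and NAC044, close relatives of SOG1 that hold cells in G2 after damage, differed by 4.34 ± 0.29 (adjusted p 2.89e-05) and 1.83 ± 0.16 (adjusted p 0.000117). NAC085 stood at 1.13 and 0.876 CPM in WT_zeb against 17.7 and 23.3 in nse4a-2_zeb. SMR7, an inhibitor of cyclin-dependent kinases of the SIAMESE family and a direct SOG1 target, rose by 3.02 ± 0.24 (adjusted p 7.19e-05), from 4.31 and 2.52 to 28.6 and 27.2 CPM. It was the single call among the 8 SIAMESE-related genes tested, whose median was −0.099.

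Further repair and signalling genes of the same list had smaller differences than NAC085 and GMI1. PARP2 (AT4G02390), a poly(ADP-ribose) polymerase that binds breaks, rose by 1.51 ± 0.12 (adjusted p 6.64e-05), from 35.6 and 35.7 to 97.9 and 105 CPM, and its relative PARP1 (AT2G31320, which the deposited annotation calls PARP2) by 0.66, a call lost without WT_zeb R1 or either mutant library. AGO2, an Argonaute with a role in break repair and in antiviral silencing, was at 17.7 and 17.1 CPM in WT_zeb and 57.2 and 55.9 CPM in nse4a-2_zeb, a difference of 1.70 ± 0.15 (adjusted p 9.95e-05). XRI1, an X-ray inducible gene needed for meiotic repair, rose by 1.61, the clamp loader gene RAD17 by 1.30, BRCA1 by 0.72 and the mitotic cyclin CYCB1;1, which is induced rather than repressed by damage, by 1.24. SOG1 itself (0.10), BARD1 (−0.32), WEE1 (−0.42) and RNR1 (0.34) were not called. The count of 16 fell to 13 to 15 as each zebularine library was left out. By contrast, among 19 genes for damage sensing and for repair by other routes, which are mostly not damage-inducible, 1 was called. Over all genes tested, 12.9% were called higher and 9.09% lower. The checkpoint clamp gene RAD9 was lower at −0.80 ± 0.21 (adjusted p 0.0218). This call was lost with DESeq2, with the zebularine libraries alone and without WT_zeb R1 or nse4a-2_zeb R2. ATM and ATR stood at −0.16 and 0.14.

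Because SOG1 binds a palindrome, the 250 bases before the annotated start of each tested gene were searched on both strands for its letters, CTTNNNNNNNAAG. It was found in 8.94% of 19629 windows of all genes tested, in 11.1% of those of genes called higher and in 7.34% of those called lower. Among genes at least 4-fold higher the share was 14.7%. It was in 4 of the 20 damage-inducible genes, NAC044 and PARP2 among them. Other lists searched ran from 0 of 14 H2A and H2B genes to 5 of 24 clock genes, with 2 of 10 for salicylic acid synthesis. A match of these letters is not a measured site of binding. The windows of PARP2 and SMR7 are shown because both called genes hold a match, which is in capitals; they were read from RefSeq TAIR10.1 at chr4:1049516-1049765 on the plus strand and chr3:10231568-10231817 on the minus strand, and are written along the gene.
PARP2: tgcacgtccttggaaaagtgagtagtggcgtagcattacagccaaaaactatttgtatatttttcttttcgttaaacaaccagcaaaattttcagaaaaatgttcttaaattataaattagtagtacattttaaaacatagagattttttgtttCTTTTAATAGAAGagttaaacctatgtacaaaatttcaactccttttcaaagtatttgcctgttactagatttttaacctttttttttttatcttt
SMR7: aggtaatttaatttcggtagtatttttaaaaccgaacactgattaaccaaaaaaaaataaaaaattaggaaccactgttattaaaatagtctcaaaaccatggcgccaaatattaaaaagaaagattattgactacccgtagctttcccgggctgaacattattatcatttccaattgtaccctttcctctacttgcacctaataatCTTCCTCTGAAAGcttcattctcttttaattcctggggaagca
The last base of the match lies 84 bases before the annotated start in PARP2 and 31 in SMR7. GMI1 and NAC085, whose differences were larger than that of PARP2, have no match in their windows.

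**Figure D2:**
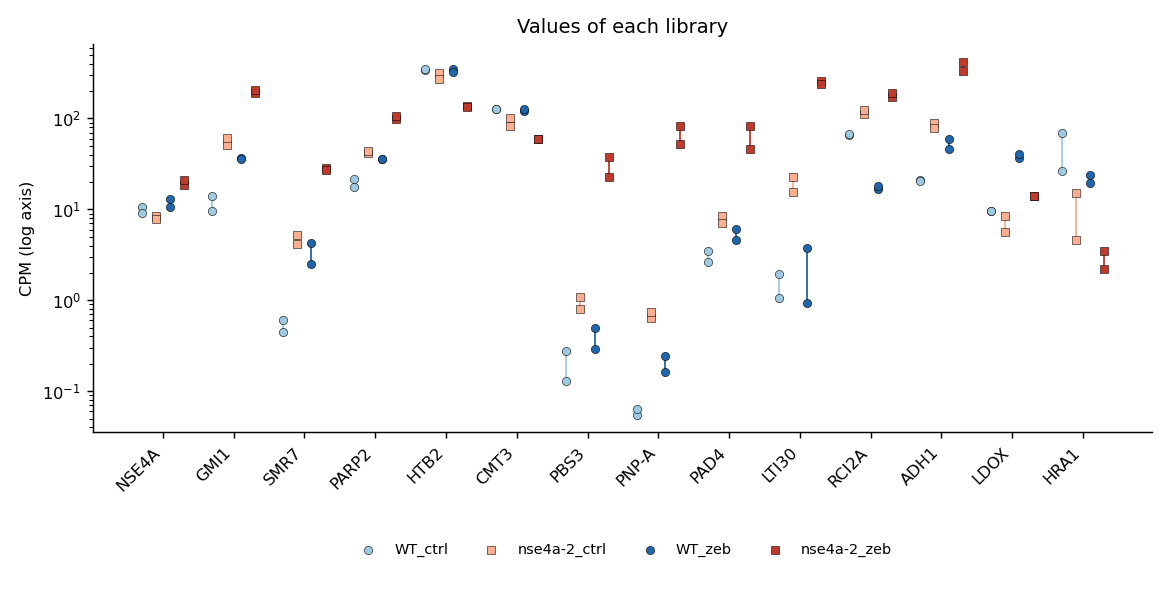
Levels in CPM on a log axis for 14 genes named in the text, with 1 point per library (circles wild type, squares nse4a-2, pale colours control medium, dark colours zebularine) and a line joining the 2 libraries of a group. The dark squares of GMI1, SMR7, PARP2, PBS3, PNP-A, PAD4, LTI30, RCI2A and ADH1 lie above all other points of the gene, and those of HTB2, CMT3 and HRA1 lie below.

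Genes of the core histones that are made during DNA replication were lower in nse4a-2_zeb, with 1 exception in direction. All 13 genes for histones H3.1 and H4 were called lower (9.09% of genes tested were called lower), with a median of −1.0, and 11 of 14 H2A and H2B genes, with a median of −0.78. The H2B gene HTB2 was at 349.9 and 324 CPM in WT_zeb and 136 and 133 CPM in nse4a-2_zeb, a difference of −1.32 ± 0.13 (adjusted p 0.000161), and HTB1 at 208 and 221 against 86.7 and 86.4 CPM. The exception was the H2B gene AT2G28720, at 29.1 and 38.5 CPM in WT_zeb and 47.4 and 43.4 CPM in nse4a-2_zeb, which did not pass at 0.43 ± 0.14 (adjusted p 0.0553) and was called higher without the low-count filter or without WT_zeb R2. HTA5 (−0.20) and HTA3 (−0.35), both of the H2A.X variant, were not called. The H4 gene AT1G07660 had the largest fall of the H3.1 and H4 genes, at −1.81 ± 0.18 (adjusted p 0.000181). Summed over the 13 genes, H3.1 and H4 made up 1983 and 1669 CPM in WT_zeb and 920.2 and 970.3 in nse4a-2_zeb, beside 1800 and 1821 in WT_ctrl and 1931 and 1618 in nse4a-2_ctrl. The 2 nse4a-2_zeb libraries thus lay below all 6 others. Leaving out a zebularine library left 12 or 13 of the H3.1 and H4 calls and 8 to 11 of the H2A and H2B calls. Copies of these genes are nearly identical, so that reads may have been split between them and the value of a single copy is uncertain.

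Other genes of the cell cycle had medians nearer to 0 than the histones. Over all genes tested, 9.09% were called lower and 12.9% higher. Of 25 genes for G2 and mitosis 4 were called lower and 0 higher, with a median of −0.33. For 15 of the 25 both mutant libraries lay below both wild-type ones, a pattern whose share over all genes tested was not counted. The cyclin gene CYCA1;1 was at 34.1 and 32.7 CPM in WT_zeb and 23.6 and 14.4 CPM in nse4a-2_zeb, a difference of −0.82 ± 0.20 (adjusted p 0.0175), and CYCB1;3 was lower at −0.71 ± 0.16 (adjusted p 0.0119). MAD2, of the spindle checkpoint, and AUR1, a mitotic kinase, were called at −0.48 and −0.40. All 4 calls were lost without nse4a-2_zeb R2, those of CYCA1;1, MAD2 and AUR1 without WT_zeb R1, and those of MAD2 and AUR1 without WT_zeb R2 or with DESeq2. Of 23 S phase genes, 5 were called lower and 1 higher, with a median of −0.20; the sliding clamp genes PCNA1 and PCNA2 stood at −0.53 ± 0.13 (adjusted p 0.0182) and −0.50 ± 0.10 (adjusted p 0.00756), the chromatin assembly gene FAS1 at −0.35, the helicase gene MCM7 at −0.37, and the licensing gene CDT1A was higher at 0.44. All 6 S phase calls were lost without either nse4a-2_zeb library, and without WT_zeb R1 2 lower and 0 higher ones were left.

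Among 26 genes for DNA methylation and silencing, 2 were called higher and 5 lower. CMT3, the maintenance methyltransferase for CHG sites, was at 121 and 126 CPM in WT_zeb and 60.0 and 58.7 CPM in nse4a-2_zeb, a difference of −1.06 ± 0.12 (adjusted p 0.000497) with no overlap of the groups. AGO4, the Argonaute of RNA-directed DNA methylation, was lower at −0.68 ± 0.11 (adjusted p 0.00285), and RDR2, CMT2 and the methylcytosine reader VIM1 at −0.86, −0.61 and −0.53, calls lost without WT_zeb R2 or nse4a-2_zeb R2, that of CMT2 also without WT_zeb R1 or nse4a-2_zeb R1. DRM1, a de novo methyltransferase that is little expressed in wild type, rose by 2.93 ± 0.44 (adjusted p 0.0018), from 1.27 and 0.492 to 6.79 and 6.92 CPM, and MORC6 by 0.54. MET1, the maintenance enzyme for CG sites, was at −0.30 and did not pass. A short list held genes whose expression has been linked to DNA methylation, and 3 of them were tested. Not all of these are silent in wild type, and a loss of silencing was not tested. SDC, an F-box gene, was lower at −2.63 ± 0.75 (adjusted p 0.0332), with 2.01 and 1.04 CPM in WT_zeb and 0.19 and 0.288 in nse4a-2_zeb. This call was lost without WT_zeb R1 or either mutant library. APC13, the other called member, was lower at −0.49 ± 0.15 (adjusted p 0.0484), a call lost when any zebularine library was left out and with DESeq2, RLE size factors, no filter, the replicate block or the zebularine libraries alone. QQS stood at 1.62 ± 0.57 (adjusted p 0.0719). Of the 2338 genes annotated as transposable elements that have values, 97 had enough reads to test, and 9 were called higher and 8 lower, with a median of 0.08. These counts are not above the shares of all genes tested (12.9% higher and 9.09% lower), and the 8 fell to 2 without WT_zeb R1 or either mutant library and to 4 with DESeq2.

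Many defence genes linked to salicylic acid were higher in nse4a-2_zeb, from the synthesis of the hormone to the outputs PR1 and PR2. Salicylic acid is a hormone of immunity to biotrophic pathogens; ICS1 makes its precursor isochorismate in the plastid, EDS5 exports it and PBS3 joins it to glutamate, and the genes are driven by the factors CBP60G and SARD1. Of 10 tested genes for salicylic acid and its partner signal N-hydroxypipecolic acid, 9 were called higher and 0 lower, with a median of 2.16. The share called higher among all genes tested was 12.9%. PBS3 was at 0.294 and 0.492 CPM in WT_zeb and 22.9 and 37.7 CPM in nse4a-2_zeb, a difference of 6.26 ± 0.37 (adjusted p 1.48e-05). EDS5 was at 4.61 and 7.22 CPM in WT_zeb and 35.9 and 52.9 CPM in nse4a-2_zeb, a difference of 2.91 ± 0.25 (adjusted p 9.73e-05), and ICS1 rose by 1.63 ± 0.16 (adjusted p 0.000183). FMO1, which makes N-hydroxypipecolic acid, rose by 5.72 ± 0.58 (adjusted p 0.000232), from 0.147 and 0.0547 to 4.19 and 7.38 CPM. The regulators CBP60G and SARD1 stood at 2.27 ± 0.43 (adjusted p 0.00542) and 2.05 ± 0.48 (adjusted p 0.0145), and both calls were lost without nse4a-2_zeb R2, that of SARD1 also without either WT_zeb library. EPS1, which completes the synthesis after PBS3, was not called (−0.35), and the list kept 6 to 9 calls as each zebularine library was left out.

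Receptor and relay genes of the same pathway moved with it (12.9% of all genes tested were called higher). Of 13 genes around EDS1 and the salicylic acid receptors, 8 were called higher and 0 lower, with a median of 1.09; 5 calls were left without WT_zeb R1 and 5 without nse4a-2_zeb R2. PAD4, which binds EDS1, was at 4.61 and 6.02 CPM in WT_zeb and 46.2 and 82.9 CPM in nse4a-2_zeb, a difference of 3.61 ± 0.28 (adjusted p 6.34e-05). EDS1 rose by 2.27 ± 0.21 (adjusted p 0.000151), its other partner SAG101 by 1.87 ± 0.19 (adjusted p 0.000234) and the helper receptor ADR1-L1 by 1.65 ± 0.24 (adjusted p 0.00141). The receptor NPR1 rose by 0.79, a call lost without WT_zeb R1 or nse4a-2_zeb R2, whereas NPR3 (0.26) and NPR4 (0.042) were not called.

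Of 15 defence output genes, 10 were called higher and 0 lower, with a median of 1.69. This list holds camalexin enzymes as well as readouts of salicylic acid. For all genes tested the shares were 12.9% higher and 9.09% lower. PNP-A, which codes for a secreted natriuretic peptide, was near 0 in wild type and well read in the mutant, at 0.245 and 0.164 CPM in WT_zeb and 52 and 81.6 CPM in nse4a-2_zeb. It rose by 8.29 ± 0.34 (adjusted p 2.62e-06). PR1 and PR2, the usual readouts of salicylic acid, rose by 4.30 ± 0.60 (adjusted p 0.0011) and 4.36 ± 0.60 (adjusted p 0.00106) and stayed low in level, at 6.03 and 11.5 and at 3.81 and 5.02 CPM in nse4a-2_zeb. The camalexin enzymes CYP71A12 and PAD3 were at 0.098 and 0.438 against 13.7 and 19.7 CPM and at 2.4 and 2.85 against 16 and 34.3 CPM, differences of 5.97 and 3.26. The factors WRKY70, WRKY18 and WRKY53 were not called (0.73, 0.56 and 0.78). Among 14 genes for the recognition of microbial patterns, 7 were called higher, led by the receptor genes RLP23 (3.79), EFR (2.05) and FLS2 (1.05), and 4 calls were left without WT_zeb R1 and 4 without nse4a-2_zeb R2.

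Many receptor genes were higher as well, beside 12.9% called higher and 9.09% called lower among all genes tested. Of 32 cysteine-rich receptor-like kinase genes tested, 20 were called higher and 2 lower, with a median of 1.70. CRK6 was at 0.49 and 0.383 CPM in WT_zeb and 29.8 and 42.3 CPM in nse4a-2_zeb, a difference of 6.34 ± 0.41 (adjusted p 2.61e-05), and CRK36 rose by 5.09. CRK39 and CRK37 had 0 reads in both WT_zeb libraries and were at 4 and 3.81 and at 1.97 and 4.21 CPM in nse4a-2_zeb, at least 50.3-fold and 40.5-fold higher against a floor of 3 reads over both wild-type libraries. Of 101 NLR genes, which code for intracellular immune receptors, 39 were called higher and 1 lower, with a median of 0.73; the number called higher fell to 13 without nse4a-2_zeb R2 and to 22 without WT_zeb R1. The largest called rises were those of AT3G04220, at 4.15 ± 0.58 (adjusted p 0.00173), and AT4G11170, at 3.73 ± 0.89 (adjusted p 0.0157), the latter lost without WT_zeb R1 or nse4a-2_zeb R2. Of 54 WRKY factor genes, 16 were called higher and 2 lower (6 to 14 higher as each zebularine library was left out, with 6 without nse4a-2_zeb R2, 7 without WT_zeb R2 and 9 without WT_zeb R1); WRKY26 rose by 4.62 ± 0.38 (adjusted p 8.08e-05) and WRKY50 by 3.34 ± 0.36 (adjusted p 0.00032). Of 57 NAC factor genes, 21 were called higher and 0 lower (12 higher without nse4a-2_zeb R2), NAC085, NAC090 and NAC061 with the largest values, at 4.34, 4.45 and 4.24, of which NAC061 was lost without nse4a-2_zeb R2.

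Jasmonate genes were mixed in direction. Of 21, 4 were called higher and 2 lower, near the shares of all genes tested (12.9% and 9.09%), with a median of −0.32. TAT3, a tyrosine aminotransferase, was at 1.08 and 0.492 CPM in WT_zeb and 15.6 and 25.9 CPM in nse4a-2_zeb, a difference of 4.69 ± 0.48 (adjusted p 0.000243); the defensin gene PDF1.2 and the biosynthesis gene AOC2 rose by 2.99 and 2.18. AOC1 and AOC2 are close copies, so their split is uncertain. The repressor gene JAZ7 was lower at −3.21 ± 0.83 (adjusted p 0.0232) and the factor ORA59 at −0.95, calls lost without either mutant library, that of JAZ7 also without WT_zeb R2 and that of ORA59 without WT_zeb R1, while MYC2 (−0.54) and the lipoxygenase gene LOX3 (−0.92) were not called. Of 7 senescence genes 5 were called higher (3 without WT_zeb R1), with SAG13 at 4.58 ± 0.79 (adjusted p 0.00343) and SAG21 at 1.18 ± 0.19 (adjusted p 0.00272). Of 10 genes of the unfolded protein response 2 were called higher, the transcription factor gene BZIP60 (1.14, lost without WT_zeb R1 or nse4a-2_zeb R2) and CRT3 (0.67), a calreticulin that serves immune receptors. The chaperones BIP1 and BIP2 were at −0.12 and −0.31, not called. Of 9 heat genes HSP90.1 and HSFA2 were called higher, at 1.39 and 2.09, and the call of HSFA2 was lost when any zebularine library was left out.

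**Figure D3:**
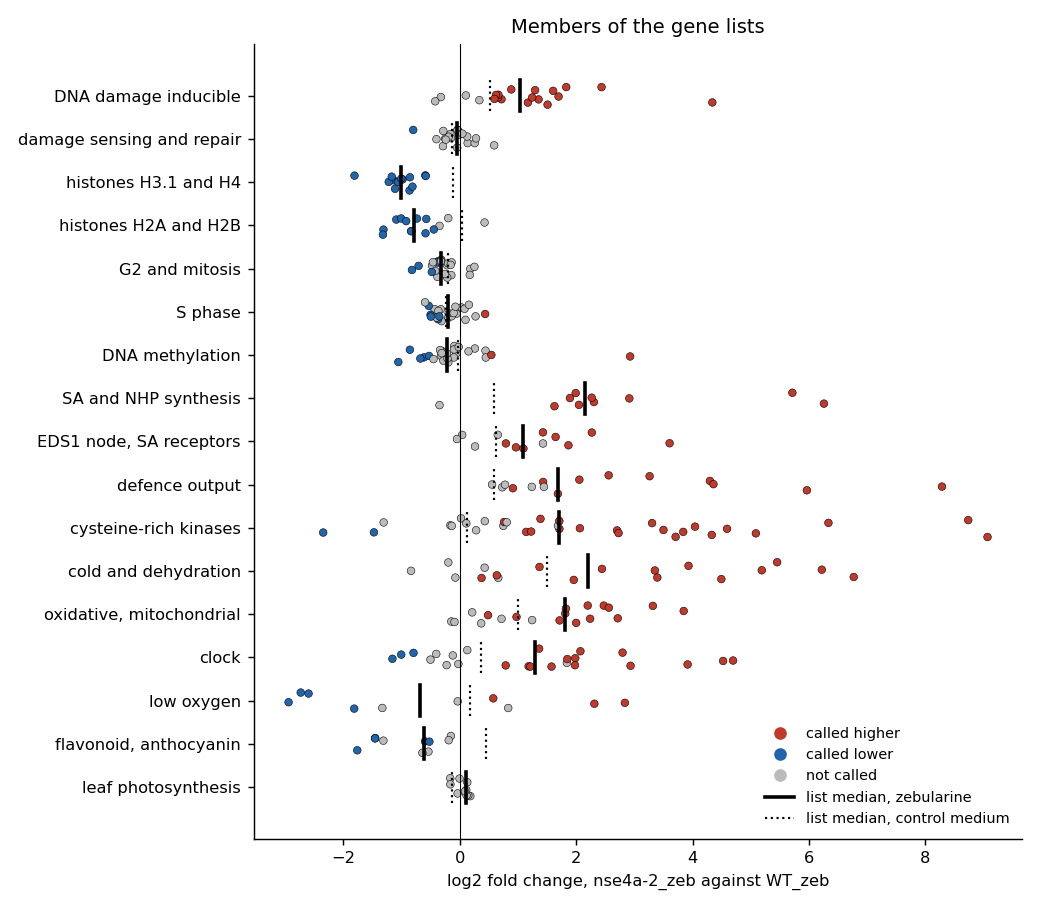
Each point is a tested member of a gene list, placed by its log2 fold change of nse4a-2_zeb over WT_zeb (red called higher, blue called lower, grey not called); the thick bar is the list's median and the dotted bar its median for nse4a-2_ctrl over WT_ctrl. The medians run from −1.0 for histones H3.1 and H4 to 2.20 for cold and dehydration genes, with leaf photosynthesis genes at 0.10.

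Cold- and drought-regulated genes, which protect membranes and proteins when water is withdrawn, had the highest list median, 2.20: of 18 tested, 13 were called higher and 0 lower. LTI30, a dehydrin, was at 0.931 and 3.72 CPM in WT_zeb and 261 and 238 CPM in nse4a-2_zeb, a difference of 6.77 ± 0.44 (adjusted p 2.53e-05). GOLS3, a galactinol synthase that makes the precursor of raffinose, was at 0.343 and 1.48 CPM in WT_zeb and 69.3 and 64.1 CPM in nse4a-2_zeb, a difference of 6.22 ± 0.49 (adjusted p 6.52e-05), and the chloroplast protectant COR15A rose by 5.45 ± 0.37 (adjusted p 3.17e-05), from 1.91 and 4.1 to 144 and 117 CPM. LTI78 reached 2072 and 1721 CPM in nse4a-2_zeb against 41.7 and 127 in WT_zeb. The small membrane protein gene RCI2A had the smallest adjusted p of the genes named here, at 16.8 and 17.9 CPM in WT_zeb and 174 and 191 CPM in nse4a-2_zeb and 3.40 ± 0.12 (adjusted p 2.02e-06). Between the 2 wild-type libraries LTI30, GOLS3, COR15A and LTI78 were lower in R1 than in R2, and both lay far below the mutant. As hours of harvest are not given, any part of the hour in these values was not tested. The CBF factors that drive this set in the cold were not called: CBF1, CBF2 and CBF3 stood at −0.076, −0.84 and 0.66. COR15A and COR15B, and KIN1 and KIN2, are close copies whose reads may have been split. Genes of abscisic acid, the drought hormone, were mixed, with 3 of 14 called higher and 2 lower. Among all genes tested, 12.9% were called higher and 9.09% lower. The hormone's phosphatase genes ABI1 and ABI2 were higher (0.95 and 0.83) and PP2CA was lower (−0.72). The call of ABI2 was lost without nse4a-2_zeb R2 and that of PP2CA without WT_zeb R2 or either mutant library; 1 higher call was left without nse4a-2_zeb R2, and 0 lower ones without either mutant library.

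CBF factors bind the CRT/DRE core CCGAC. On either strand, this core was in the 250-base windows of 12.9% of the genes tested, of 14.5% of those called higher and of 5 of the 18 cold genes (LTI78, COR15A, LTI30, GOLS3 and RCI2A). The windows of GOLS3, COR15A and RCI2A are shown as 3 called genes with the core, in capitals as CCGAC or its complement GTCGG, from RefSeq TAIR10.1 at chr1:3019389-3019638 on the plus strand, chr2:17712331-17712580 on the minus strand and chr3:1756925-1757174 on the minus strand.
GOLS3: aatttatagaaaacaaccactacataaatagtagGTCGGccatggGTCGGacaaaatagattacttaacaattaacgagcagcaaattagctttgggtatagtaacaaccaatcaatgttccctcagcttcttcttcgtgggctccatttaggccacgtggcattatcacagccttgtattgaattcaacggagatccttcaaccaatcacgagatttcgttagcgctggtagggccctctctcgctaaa
COR15A: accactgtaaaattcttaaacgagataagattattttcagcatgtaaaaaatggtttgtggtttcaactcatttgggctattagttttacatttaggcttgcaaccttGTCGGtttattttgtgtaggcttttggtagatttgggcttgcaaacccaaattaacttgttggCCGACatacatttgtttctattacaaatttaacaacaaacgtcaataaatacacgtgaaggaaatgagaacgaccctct
RCI2A: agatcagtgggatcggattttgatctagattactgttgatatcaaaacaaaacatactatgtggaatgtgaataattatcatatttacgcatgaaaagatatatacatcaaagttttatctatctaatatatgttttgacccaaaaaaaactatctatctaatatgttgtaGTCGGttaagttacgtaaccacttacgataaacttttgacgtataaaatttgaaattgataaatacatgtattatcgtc
GOLS3 and COR15A hold 2 matches each and RCI2A holds 1. A match of these letters is a description of the window and not a measured site of binding. Among genes at least 4-fold higher in nse4a-2_zeb, the core was in 14% of windows, whereas the W-box core TTGAC, which WRKY factors bind, was in 59.7% against 44.7% of all windows.

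Genes of oxidative and mitochondrial stress rose as a further group, with 13 of 19 called higher, 0 lower, and a median of 1.81. AOX1A, the alternative oxidase that bypasses the respiratory chain, was at 9.07 and 11.8 CPM in WT_zeb and 39.9 and 43.5 CPM in nse4a-2_zeb, a difference of 2.0 ± 0.24 (adjusted p 0.000542). NDB2, an external NADH dehydrogenase that works with it, rose by 1.72 ± 0.15 (adjusted p 0.000104), and NAC13 and NAC017, the membrane-bound factors of this signal, by 1.81 and 0.49; the NAC017 call was lost without WT_zeb R2 or either mutant library. The glutathione transferase genes GSTU4, GSTU24 and GSTF7 rose by 3.85 ± 0.34 (adjusted p 0.000104), 2.48 ± 0.22 (adjusted p 0.000108) and 3.32 ± 0.32 (adjusted p 0.000183); GSTF6 and GSTF7 are close copies. The peroxidase APX1 (−0.09) and the catalase CAT2 (−0.15) were not called, whereas CAT3 was higher at 0.98. In the wider detoxification families, 13 of 47 glutathione transferase genes were called higher and 5 lower, 25 of 88 UDP-glycosyltransferase genes higher and 16 lower, and 29 of 130 cytochrome P450 genes higher and 5 lower, beside 12.9% higher and 9.09% lower of all genes tested. Without nse4a-2_zeb R2 the lower calls fell to 2 glutathione transferase, 5 UDP-glycosyltransferase and 2 P450 genes and the higher P450 calls to 15. Without nse4a-2_zeb R1 or WT_zeb R1, 2 lower calls of the glutathione transferases and 2 of the P450 genes were left as well, the UDP-glycosyltransferases kept 8 and 9 lower calls, or 7 without WT_zeb R2, and without WT_zeb R1 the higher P450 calls fell to 18. Within these, UGT73B4 rose by 3.19 ± 0.27 (adjusted p 9.95e-05) and CYP76C2 by 4.04 ± 0.31 (adjusted p 5.72e-05), and UGT85A5 was lower at −2.86, a call lost without either mutant library. AT1G19550, of the glutathione transferase list, was lower at −3.76 ± 0.63 (adjusted p 0.00286) and stood at −4.61 in control medium.

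Most clock genes were higher in nse4a-2_zeb. These genes form interlocked loops of factors that peak at different hours of the day. Of 24, 14 were called higher and 3 lower, beside 12.9% and 9.09% of all genes tested, with a median of 1.29. ELF4, a part of the evening complex, was at 0.833 and 5.03 CPM in WT_zeb and 62 and 70.3 CPM in nse4a-2_zeb, a difference of 4.53 ± 0.47 (adjusted p 0.000253). COR27, a repressor regulated by cold and light, was at 0.049 and 10.6 CPM in WT_zeb and 124 and 145 CPM in nse4a-2_zeb and differed by 4.70 ± 0.87 (adjusted p 0.00479). The evening genes TOC1 and GI rose by 1.99 ± 0.21 (adjusted p 0.000268) and 2.07 ± 0.32 (adjusted p 0.00193); the dawn genes LHY and RVE8 were lower at −0.79 ± 0.16 (adjusted p 0.00697) and −1.01 ± 0.22 (adjusted p 0.00999), lost respectively without nse4a-2_zeb R2 and without WT_zeb R1 or nse4a-2_zeb R1, and CCA1 was not called (−0.23). The third lower gene, RVE1, was lost without WT_zeb R2 or nse4a-2_zeb R1. For all 14 higher genes both mutant libraries lay above both wild-type ones, which adds no support, as the same libraries gave the calls. The 2 WT_zeb libraries also differed from each other: R2 was above R1 in 13 of the 14 and over 2 times R1 in 8, and FKF1 was at 2.01 and 32.2 CPM in them, a call lost without either mutant library and with DESeq2. In 10 of the 14 both WT_zeb libraries lay below both WT_ctrl libraries as well. The 14 were picked partly for low WT_zeb values, and this pattern was not counted over all genes tested. Hours of harvest are not given, so genotype and hour cannot be told apart for these genes. The same limit holds for any other gene whose level changes with the hour of the day.

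Many evening genes carry the evening element AAAATATCT near their start. These letters, on either strand, were in 2.53% of all windows, in 5.81% of those of genes called higher, in 1.18% of those called lower and in 7 of the 24 clock genes.

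**Figure D4:**
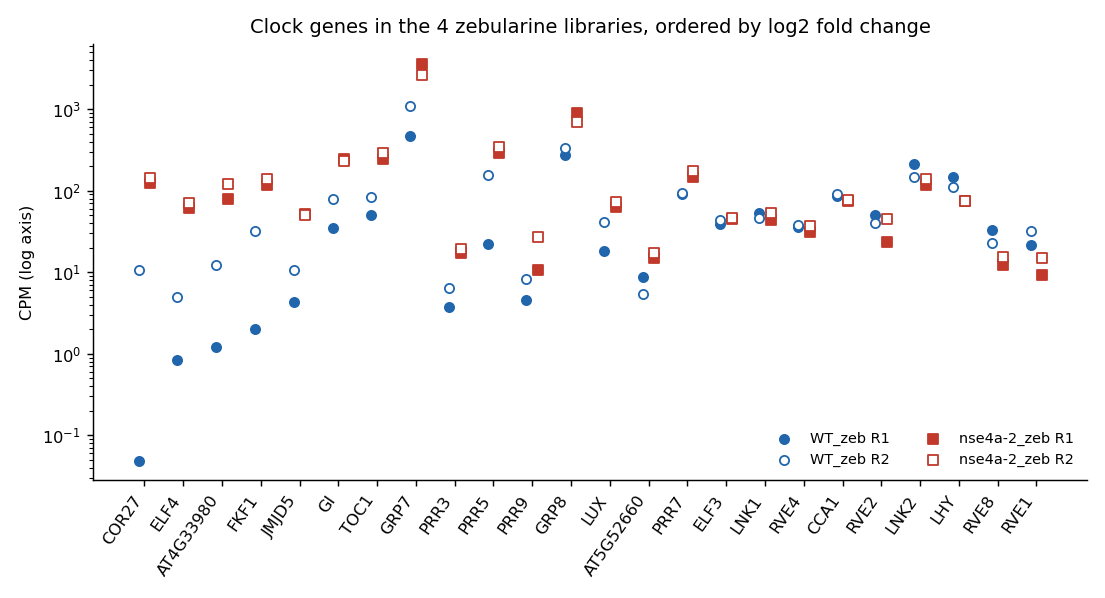
Levels of the 24 clock genes in CPM on a log axis in the 4 zebularine libraries, ordered from the highest to the lowest log2 fold change; circles are WT_zeb, squares nse4a-2_zeb, filled symbols R1 and open symbols R2. From COR27 to PRR3 the squares lie above the circles, and the filled circle lies below the open one; at the right end, LHY, RVE8 and RVE1 have their squares below.

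Low-oxygen genes split in direction (12.9% of all genes tested were called higher and 9.09% lower). ADH1, alcohol dehydrogenase, was at 46.1 and 59.6 CPM in WT_zeb and 421 and 334 CPM in nse4a-2_zeb, a difference of 2.84 ± 0.17 (adjusted p 1.48e-05), and PDC1, the pyruvate decarboxylase before it in fermentation, rose by 2.31 ± 0.50 (adjusted p 0.0107), a call lost without WT_zeb R1. HRA1, a factor that dampens the low-oxygen response, was lower at −2.94 ± 0.61 (adjusted p 0.00826), from 24 and 19.4 to 3.49 and 2.19 CPM. The oxygen-sensing cysteine oxidase genes PCO1 and PCO2 were lower at −1.81 ± 0.31 (adjusted p 0.00333) and −2.73 ± 0.56 (adjusted p 0.00826), and the factor gene LBD41 at −2.60 ± 0.63 (adjusted p 0.0175). In all, 3 of 10 were called higher and 4 lower; without nse4a-2_zeb R2 the calls of HRA1, PCO2 and LBD41 were lost, without nse4a-2_zeb R1 those of PCO2 and LBD41, and without WT_zeb R1 that of LBD41, with 1 higher call left.

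Among genes of flavonoid and anthocyanin pigments, 5 of 10 were called lower and 0 higher, with a median of −0.62. In 9 of the 10 both mutant libraries lay below both wild-type ones, a pattern whose share over all genes tested was not counted. The 5 calls fell to 3 without nse4a-2_zeb R2 or without either WT_zeb library. The late enzymes LDOX and DFR were both lower, LDOX at 37 and 40.3 CPM in WT_zeb and 14.2 and 14 CPM in nse4a-2_zeb, a difference of −1.46 ± 0.17 (adjusted p 0.000471), and DFR at −1.45 ± 0.20 (adjusted p 0.00103). UF3GT, which adds a sugar to the pigment, was lower at −1.76 ± 0.28 (adjusted p 0.00227), while the first enzyme CHS (−0.54) and the factor TT8 (−0.19) were not called. Zebularine is itself a pyrimidine nucleoside, and of 11 pyrimidine genes 5 were called higher and 2 lower. Beside both lists, 12.9% of all genes tested were called higher and 9.09% lower. The 3 genes of uracil breakdown, PYD1, PYD2 and PYD3, were higher by 0.61, 0.46 and 0.88. URH1, a uridine hydrolase, rose by 0.50 and the thymidine kinase gene TK1A by 0.62, whereas TK1B (−0.52) and DUT1 (−0.40) were called lower; without nse4a-2_zeb R2 the list had 1 higher and 0 lower calls, without nse4a-2_zeb R1 2 and 1, and without WT_zeb R1 3 and 1.

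The tissue label was checked against marker genes, beside the 22.0% of all genes tested that were called. The meristem gene STM was at 19.4 and 19.8 CPM in WT_zeb and 17.5 and 13.6 CPM in nse4a-2_zeb, and CLV1 and KNAT1 were read in all libraries, while WUS had 1 read in all 4 zebularine libraries and AP1 none. Of 19 tested meristem and flowering genes, SOC1, which promotes flowering, rose by 1.46 ± 0.19 (adjusted p 0.000755), KNAT6 by 0.87 ± 0.15 (adjusted p 0.00352), and AS1 was lower at −0.47, a call lost without WT_zeb R2 or nse4a-2_zeb R2. Of 10 leaf photosynthesis genes 0 were called (median 0.10; unadjusted p was below 0.05 for 0, and DESeq2 called 0), and their summed level was 12887 and 17052 CPM in WT_zeb and 17019 and 15117 in nse4a-2_zeb. In the stomatal lineage EPF2, a secreted inhibitor, and BASL, a polarity protein, were lower at −1.39 ± 0.23 (adjusted p 0.00246) and −0.98 ± 0.18 (adjusted p 0.00409), and FAMA, which acts late, was higher by 0.60 ± 0.13 (adjusted p 0.0112), a call lost without WT_zeb R1 or nse4a-2_zeb R2. Of 6 vascular genes the sucrose carrier SUC2 was called higher (0.55), a call lost without WT_zeb R1 or either mutant library. Of 7 root markers 3 had enough reads, and the root-hair gene COBL9 was at 0.196 and 0.0547 CPM in WT_zeb and 2.41 and 3.52 CPM in nse4a-2_zeb, a difference of 4.45 ± 0.63 (adjusted p 0.00125).

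The 12 largest called rises with at least 1 CPM in the mutant included genes without reads in wild type. AT1G13310, a BRO1-domain gene, had 0 reads in both WT_zeb libraries and stood at 3.68 and 7.55 CPM in nse4a-2_zeb, at least 73.6-fold higher against the same floor. CSY5, annotated as a citrate synthase, and AT3G54520 were higher by at least 35.5-fold and 35.1-fold. PP2-B5, AT2G25370, AT5G07600, AT2G23830 and AT2G40350 also had 0 wild-type reads, with lower bounds from 16.8-fold to 26.1-fold. AT4G01180, an XH/XS-domain gene of the kind found in RNA-directed DNA methylation, had 1 read in WT_zeb and 191 in nse4a-2_zeb, a ratio of 223 (exact 95% counting interval 39.6 to 8863). CRK39, CRK37 and PNP-A complete the 12. In all, 16 genes called higher had 0 reads in both WT_zeb libraries, of which 8 had none in WT_ctrl either.

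Several genes among the 12 largest falls were also near 0 in the mutant in control medium. MRD1 was at 55.3 and 39.2 CPM in WT_zeb and 0 and 0.461 CPM in nse4a-2_zeb and at 55.3 and 47.3 CPM in WT_ctrl against 0.0636 and 0 in nse4a-2_ctrl, a difference of −7.57 ± 0.46 (adjusted p 1.61e-05) in zebularine. AT3G01345, an expressed gene of unknown function, was at 101 and 40.0 CPM in WT_zeb and 0.19 and 0.288 CPM in nse4a-2_zeb, a difference of −8.15 ± 0.70 (adjusted p 9.95e-05), and −7.43 in control medium. AT2G01550, annotated as a LINE retrotransposon, had 0 reads in all 4 mutant libraries and stood at 2.89 and 2.08 CPM in WT_zeb, at least 27.7-fold lower in nse4a-2_zeb. AO4, an aldehyde oxidase, had 58 reads in WT_zeb and 1 in nse4a-2_zeb, a ratio of 49.6 (exact 95% counting interval 8.56 to 1993), and stood at 2.64 and 3.59 CPM in WT_ctrl against 0.0636 and 0.124 in nse4a-2_ctrl.

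Most of the other large falls had unequal wild-type libraries. The extensin-like genes AT1G23720, AT3G54580 and AT3G28550 were at 0.147 and 5.03, at 0.196 and 4.71 and at 0.343 and 6.68 CPM in WT_zeb R1 and R2, and at 0 and 0, at 0.0635 and 0 and at 0.127 and 0.115 CPM in nse4a-2_zeb. All 3 calls were lost without WT_zeb R2 or without any 1 of the mutant libraries of either medium. BGLU21, a beta-glucosidase, was at 1.32 and 19.2 CPM in WT_zeb and 0.0635 and 0.288 CPM in nse4a-2_zeb, and the lectin gene AT2G25980 at 0.637 and 3.12 CPM in WT_zeb and 0 and 0 CPM in nse4a-2_zeb, and both calls were lost without nse4a-2_zeb R2, that of BGLU21 also without nse4a-2_zeb R1. Beside these, the summed level of the 7 root markers was 3.43 and 4.6 CPM in WT_zeb and 6.48 and 8.30 CPM in nse4a-2_zeb, and without COBL9 3.24 and 4.54 in WT_zeb and 4.06 and 4.79 CPM in nse4a-2_zeb, so that COBL9 made up most of the gap. RHD6 had 0 reads in all 4 libraries, PLT1 and EXP7 had 7 reads each in WT_zeb and 0 in nse4a-2_zeb, and any part of root tissue in these falls was not tested. AT2G20670 and AT4G10910 were high in WT_zeb R1 instead, at 52.3 and 4.65 and at 3.14 and 0.547 CPM, and their calls were lost without either mutant library, that of AT4G10910 also without WT_zeb R1. AT4G14980 had 39 reads in WT_zeb against 1 in nse4a-2_zeb, a ratio of 33.4 (exact 95% counting interval 5.65 to 1351).

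Most genes called between the genotypes in control medium were called the same way in zebularine. Of the 449 genes called higher in nse4a-2_ctrl against WT_ctrl (2.28% of genes tested), 341 were also called higher in zebularine, which is 75.9% of the control list and 13.4% of the zebularine list. Of the 168 called lower in control medium (0.854%), 112 were called lower in zebularine, 66.7% and 6.26% of the lists. These contrasts share no library. Across genes, which are not independent replicates, the 2 sets of log2 fold changes had a Pearson r of 0.58 and a Spearman rho of 0.53. For genes picked on their zebularine values, the median in control medium was 0.42 for the genes called higher in zebularine and −0.23 for those called lower.

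Several lists had calls in control medium too, where 2.28% of all genes tested were called higher and 0.854% lower. Of the damage-inducible genes, 7 of 20 were called higher in control medium, and SMR7 and GMI1 differed there by 3.13 and 2.25, with differences between media of −0.11 ± 0.40 (adjusted p 0.943) and 0.19 ± 0.24 (adjusted p 0.787), neither of them called. Of the cold genes, 9 of 18 were called higher in control medium, among them LTI30 at 3.71 ± 0.46 (adjusted p 0.0045). The histone lists had medians of −0.11 and 0.032 there, with 1 gene called higher and 1 lower among the 13 H3.1 and H4 genes. Of salicylic acid synthesis genes 1 of 10 was called in control medium, with a median of 0.58. For the cysteine-rich kinases the count was 1 of 32, near the share of all genes tested.

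The difference between media was itself tested in the same model. It was called for 152 genes (0.772% of those tested), 108 with a higher and 44 with a lower genotype effect in zebularine. Of the 152, 146 were also called in the zebularine comparison, where 22.0% of all genes tested were. Much of this overlap is built in, as the test of the difference contains the zebularine comparison and its libraries. The lists with 3 or more calls of the difference were H3.1 and H4 (5 lower), H2A and H2B (5 lower), cytochromes P450 (4 higher), salicylic acid synthesis (3 higher), cysteine-rich kinases (3 higher) and the clock (2 higher and 1 lower). EDS5 was at 4.46 and 5.25 CPM in WT_ctrl and 5.22 and 5.26 in nse4a-2_ctrl, and its genotype effect was larger in zebularine by 2.80 ± 0.36 (adjusted p 0.0207). For HTB2 the genotype effect was lower, at −1.09 ± 0.17 (adjusted p 0.0296), from −0.23 in control medium to −1.32 in zebularine. COL2, a CONSTANS relative, stood at 8.98 and 11.1 CPM in WT_ctrl and 15 and 15.5 in nse4a-2_ctrl, but at 37.7 and 28 CPM in WT_zeb and 9.27 and 8.3 CPM in nse4a-2_zeb. Its genotype effect turned from 0.61 to −1.91, a change of −2.51 ± 0.26 (adjusted p 0.0121). Leaving out a library moved the higher calls of this difference between 5 and 185 and the lower ones between 0 and 45, with the lowest counts without nse4a-2_zeb R2.

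**Figure D5:**
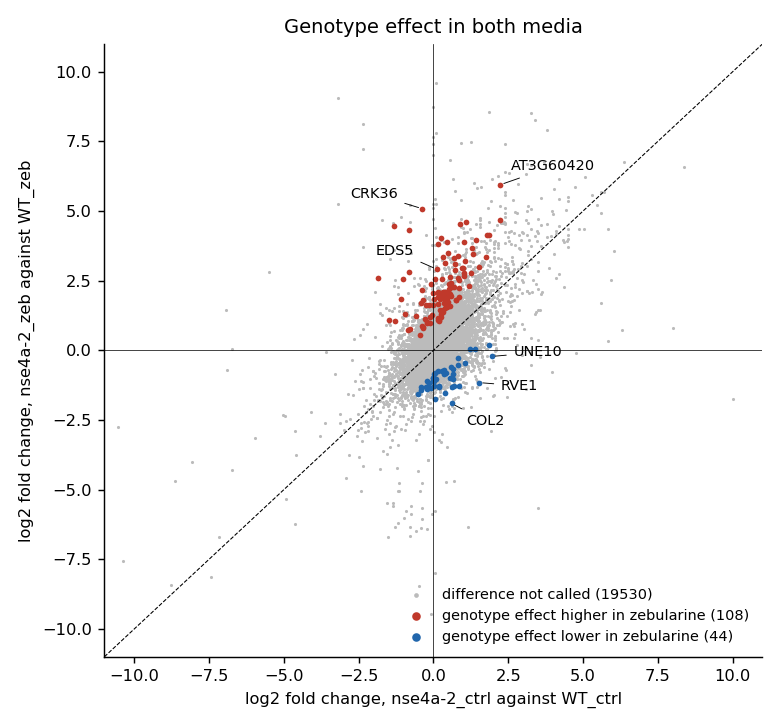
Log2 fold change of nse4a-2 over wild type in control medium (x axis) and in zebularine (y axis) for the 19682 genes tested, with the line of equal effect dashed. Red points are the 108 genes with a higher and blue points the 44 genes with a lower genotype effect in zebularine. Of the 152 genes in colour, 146 were also called in the zebularine comparison, whose libraries the test of the difference shares.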

How the data were processed

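Shoot apices of 10-day-old Arabidopsis plants were sequenced as 100-bp single-end reads, per the labels. The deposited table holds raw counts of reads per gene, which the authors made; per the submitters' processing notes TopHat2, Cuffdiff and TAIR10 were used, with roles and versions not given in the sources used here. Per the file headers, R1 and R2 are biological replicates, 2 in each of 4 groups; 16 other columns of per-sample values were not used, and strand is not stated. From the counts, 43 genes without values were left out, genes with few reads were removed with filterByExpr, libraries were scaled by TMM, and 1 model over all 8 libraries was fitted with edgeR 4.0.16 (R 4.3.3) and tested with its quasi-likelihood F-test, with Benjamini-Hochberg adjustment over the 19682 genes tested and a threshold of 0.05. The SE was taken from the F statistic as the log2 fold change over its root. Per-library levels are TMM-scaled CPM. Intervals and the floor of 3 reads cover counting error only. Sequences are RefSeq TAIR10.1, in which 31912 of the listed genes were found.

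The members and the gene lists were chosen with earlier results of these data known. The genes named are the SMC5/6 genes, the 12 largest rises and 12 largest falls with at least 1 CPM in the higher group, up to 5 called members of each list, and the 6 largest differences between media each way; other list members are named as members. Alternatives were DESeq2 1.42.0, RLE size factors, no filter, a replicate block, the zebularine libraries alone and each library left out. Deviations from the group means correlated at −0.086 to 0.234 between libraries of the same number, so the numbers were not taken to pair the samples. Some items are not reported here.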

Additional observations from a re-analysis of the deposited data

Results flagged for a closer look

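For 24 of the genes named by the rule, the genotype effect differed between zebularine and control medium (edgeR's quasi-likelihood test of the difference, adjusted p below 0.05); each value is the log2 fold change of nse4a-2 over wild type in zebularine minus that in control medium. The 6 largest values each way were named for their size in this same test, and its calls moved widely with 1 library left out, as given above. It was 5.77 for COBL9, a root-hair gene, 5.47 for CRK36 and 5.13 for CRK12. COBL9 had few reads in the WT_zeb libraries and in all control libraries, so its value is uncertain in size. Further rises were 4.45 for AT1G14200, 3.79 for CYP76C2 and 3.71 for AT3G60420. Among defence genes the difference was 3.01 for WRKY50, 2.80 for EDS5, 1.89 for EFR and 1.65 for EDS1. AGO2 stood at 1.35.

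Differences below 0 were −2.69 for RVE1, a clock-related factor, −2.51 for COL2, −2.17 for UNE10 and −2.11 for RUP2, a repressor of UV-B signalling. MYB0, the trichome factor also known as GL1, stood at −1.98, AT1G64500 at −1.94 and the flavonoid gene F3H at −1.35. The histone genes were HTB2 at −1.09, HTB1 at −0.89, HTA13 at −1.09 and HTA7 at −1.01, with the H4 genes AT5G59970 at −1.03 and AT3G46320 at −1.13. With 2 libraries in each group, no search for single libraries far from their group was made.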

How the results depend on the processing

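The zebularine counts of 2541 higher and 1789 lower genes stayed within 1.5 times under DESeq2 (2339 and 1537), RLE size factors, no filter, the replicate block (2672 and 1851) and the zebularine libraries alone. The counts that moved were those of control medium and of the difference between media. In control medium, 449 higher and 168 lower became 726 and 261 with DESeq2, 965 and 332 without the filter and 845 and 314 with the replicate block. For the difference, 108 higher and 44 lower became 332 and 164 with DESeq2, 363 and 214 without the filter and 288 and 168 with the block. The replicate numbers are not stated to pair the samples, so this block only shows how the counts move.

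With 1 library left out, the lone library of a group being assumed to vary like the others, zebularine calls ran from 1251 to 2757 higher and from 524 to 2081 lower. Control medium gave 102 to 576 higher and 22 to 247 lower, and the difference 5 to 185 higher and 0 to 45 lower. RBCS1A, at 0.18 and not called, ran from −0.049 (without WT_zeb replicate 1) to 0.46 (without WT_zeb replicate 2). Of 181 named genes, 14 lost their call with DESeq2, 4 without the filter, 3 with RLE size factors, 4 with the block and 61 without nse4a-2_zeb replicate 2, and none gained one. The causes were not tested.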
